A study of Mus musculus with 10 samples.

Results

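The genes described here are 37 transcription factor genes of the Sox, Klf and Gata families. They were taken from the 17813 genes with a single-gene probe set in the deposited table. Members were chosen by symbol alone: every numbered Sox gene, every numbered Klf gene and Gata1 to Gata6, leaving out Sox2, Sox9, Klf9 and Gata6. This gave 17 Sox, 15 Klf and 5 Gata genes, and each rests on 1 probe set of that table. The study isolated distal tip cells from embryonic mouse lungs and hybridised their RNA to 10 Affymetrix mouse arrays, 5 per stage. At E11.5 (E counts embryonic days), tip epithelium was cut out by hand after a brief dispase digestion, with no tamoxifen described. At E17.5, lungs were dissociated with trypsin/EDTA and GFP+ cells were sorted by flow cytometry, after tamoxifen given to the mother at E16.5. Embryos of both stages carried Id2-CreER and Rosa26R-fGFP, in which a tamoxifen-activated Cre under the control of Id2 switches on a green reporter. Any cell that used Id2 at E16.5 and its descendants could carry GFP, and the study describes the sorted cells as tip cells with a few of their immediate progeny. The labels call the arrays biological replicates but name neither litters nor pools, so p-values measure the spread between these arrays, which may in part be technical. Stage and isolation method changed together and cannot be told apart in any comparison below.

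SOX proteins bind and bend DNA through an HMG box, and they are sorted into lettered groups by the likeness of that box, with members of a group often active in the same tissues. Krüppel-like factors (KLF) carry 3 zinc fingers at the C-terminus that recognise CACCC and GC-rich sequences, and they differ in the coactivators or corepressors recruited by the rest of the protein. GATA factors bind the sequence GATA through zinc fingers; Gata1, Gata2 and Gata3 are best known from blood, endothelium and lymphocytes, and Gata4, Gata5 and Gata6 from heart and endoderm-derived organs such as lung and gut. In the lung, Sox9, Sox2 and Gata6 are the members most often studied in epithelium, and Sox17, Sox18 and Klf2 are well known from vessels.

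Signals are on a log2 scale, and a difference of 1 in log2 signal is a 2-fold difference. Median log2 signals of the E11.5 arrays were 7.01 to 7.14, and those of the E17.5 arrays 7.14 to 7.23. Over all genes, arrays of the same stage correlated at 0.984 or more, and arrays of different stages at 0.819 to 0.847. The labels call the cells epithelial. A list of 22 pan-epithelial markers held Cdh1, Epcam and Nkx2-1 among others. Its mean log2 signal was 11.64 to 11.90 on the E11.5 arrays and 12.29 to 12.57 on the E17.5 arrays. Of the 22 markers, 12 were called higher at E17.5, 5 were lower and 5, Nkx2-1 among them, were not called. The largest log2 differences of each sign were 4.55 for Grhl2 and -1.54 for Cldn6. Of 8 alveolar type 1 markers, 8 were called higher at E17.5 (median log2 difference 4.56). Of 9 alveolar type 2 markers, 8 were higher and 1, Lpcat1, was lower (median 4.96). However, lists of markers of other cell types differed between the stages as well. Higher at E17.5 were 16 of 19 endothelial markers (1 lower), 18 of 21 markers of macrophages and monocytes (1 lower) and 7 of 10 mast cell markers (2 lower). Of 20 mesenchymal markers, 7 were higher and 8 lower. Of 9 smooth muscle and pericyte markers, 4 were higher and 4 lower. Over all genes, 36.9% were called higher and 31.5% lower. In bulk samples such as these, a change in the number of cells of a type and a change in RNA per cell cannot be told apart. Values of several lists are given beside member genes below, and the part of such cells in the member differences was not tested.

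Across the 37 genes, 16 had higher signals at E17.5 than at E11.5, 12 had lower signals and 9 missed the threshold (limma, Benjamini-Hochberg adjusted p under 0.05 over all 17813 genes). The stages differed widely over the whole array, where 36.9% of all genes were called higher and 31.5% lower, with 68.4% called in either direction. The median log2 difference, E17.5 minus E11.5, was 0.07 over the members and 0.03 over all genes. At least 2-fold differences were called higher for 11 members and lower for 5, against 24.2% and 16.3% of all genes (40.5% in either direction). At least 4-fold differences were called higher for 8 members, namely Sox7, Sox17, Sox18, Klf2, Klf4, Klf6, Klf15 and Gata2, against 13.3% of all genes. At least 4-fold lower were 3 members, Sox6, Klf12 and Gata5, against 6.47% of all genes, and 19.8% of all genes passed in either direction. The 5 E17.5 arrays lay above all 5 E11.5 arrays for 15 members and below all of them for 11, against 32.3% and 26.3% of all genes (58.6% in either direction). The families differed in composition: 5 of 17 Sox genes were higher and 6 lower, 9 of 15 Klf genes were higher and 5 lower, and 2 of 5 Gata genes were higher and 1 lower. After quantile normalisation the Klf split was 7 higher and 6 lower, while the shares of all genes became 31.9% higher and 39.0% lower. These counts are descriptions, and no test set one family against another.

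**Figure D1:**
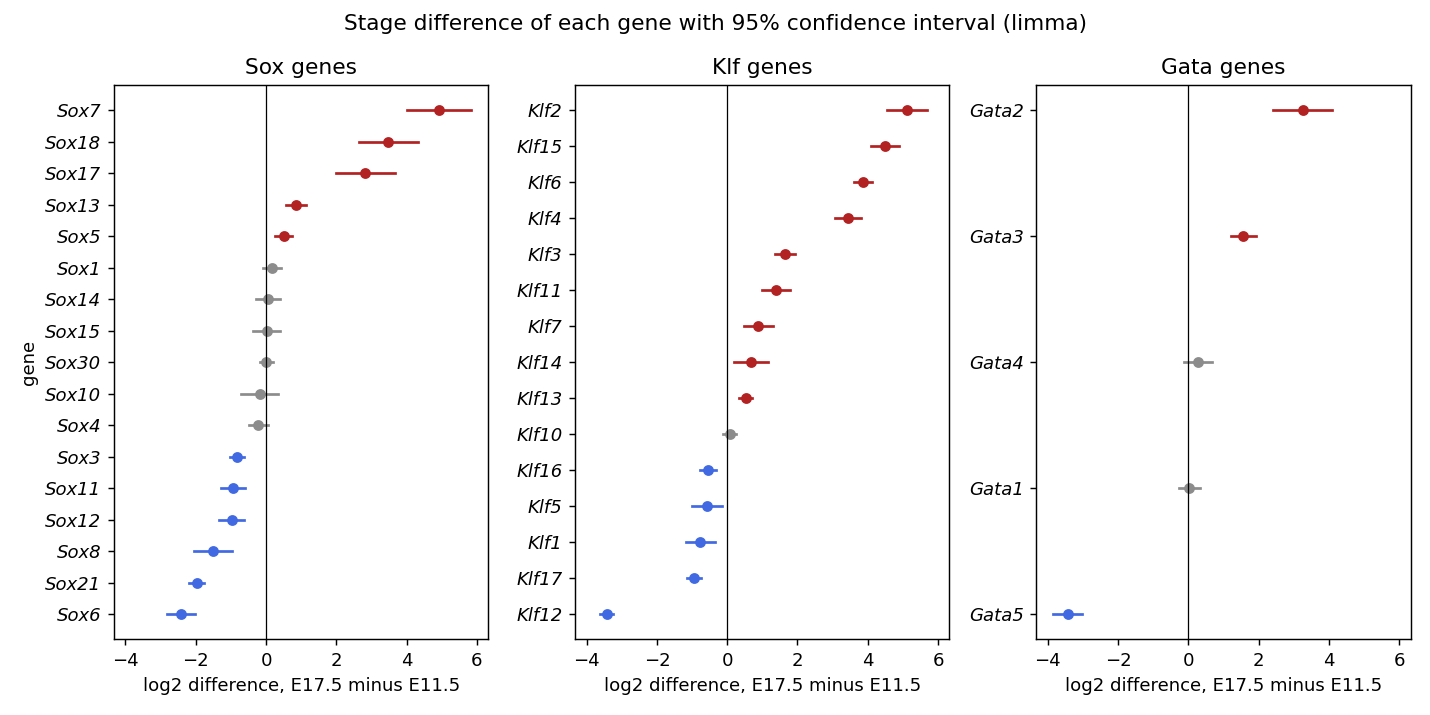
Difference between stages for each of the 37 genes. The x axis is the log2 difference in signal, E17.5 minus E11.5, and the horizontal bars are 95% confidence intervals from limma (n = 5 arrays per stage), with genes ordered within each family and coloured by whether they were called. The largest rises are those of Klf2 (5.12), Sox7 (4.93) and Klf15 (4.49), and the largest falls are those of Klf12, Gata5 (both -3.43) and Sox6 (-2.42).

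All 3 genes of SOX group F, known for their roles in blood and lymphatic vessel formation, were strongly higher at E17.5. Sox7 (probe set 1416564_at) had log2 signals of 4.43, 4.31, 4.56, 4.23 and 4.71 on E11.5 replicates 1 to 5 and of 8.76, 10.29, 9.19, 8.03 and 10.62 on E17.5 replicates 1 to 5. Its lowest E17.5 array was far above its highest E11.5 array, and the mean rose by 4.93 ± 0.41 (SE) on the log2 scale, or 30.5-fold (limma, adjusted p = 3.6e-07). Sox18 (1449135_at), in which mutations cause the ragged mouse with defective lymphatics, read 5.62, 4.96, 5.35, 5.15 and 5.34 at E11.5 and 7.88, 9.63, 8.62, 7.78 and 9.90 at E17.5. The rise of 3.48 ± 0.38 was 11.1-fold (limma, adjusted p = 4.4e-06), again with no overlap. Sox17 (1421657_a_at), needed for definitive endoderm and for arterial endothelium, read 5.07, 4.25, 4.11, 4.46 and 4.77 at E11.5 and 6.64, 7.97, 7.63, 6.17 and 8.38 at E17.5. This was a rise of 2.82 ± 0.38, or 7.09-fold, without overlap (limma, adjusted p = 2.9e-05).

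The E17.5 arrays differed from each other in these genes far more than the E11.5 arrays did. The SD of the log2 signal at E17.5 was 1.07 for Sox7, 0.97 for Sox18 and 0.93 for Sox17, against 0.19, 0.25 and 0.39 at E11.5. For all 3 genes, replicate 4 was lowest, followed by replicates 1, 3 and 2, with replicate 5 highest. The mean log2 signal of the 19 endothelial markers had the same order: it was 9.12, 10.27, 9.56, 8.81 and 10.51 on E17.5 replicates 1 to 5, and 5.64 to 6.51 on the E11.5 arrays. Lyve1, a hyaluronan receptor of lymphatic endothelium and some macrophages, was 71.3-fold higher at E17.5, and Emcn, an endothelial sialomucin, was 63.8-fold higher (limma, adjusted p = 2.2e-09 and 3.3e-07). Pecam1, which encodes the endothelial adhesion molecule CD31, was 38.6-fold higher, and Ptprb, an endothelial phosphatase, rose by 5.66 on the log2 scale (limma, adjusted p = 1.3e-07 and 1.6e-08). The mesenchymal list read 7.03, 8.04, 7.68, 7.16 and 7.72 on E17.5 replicates 1 to 5. The smooth muscle and pericyte list read 7.35, 8.16, 7.93, 7.81 and 8.09. Both were likewise lowest on replicates 1 and 4 and highest on replicates 2 and 5, though replicate 1 was lowest and replicate 2 highest. The pan-epithelial list had another order, with replicate 1 highest at 12.57 and replicate 2 lowest at 12.29. These orders were seen by eye over 5 arrays and were not tested.

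**Figure D2:**
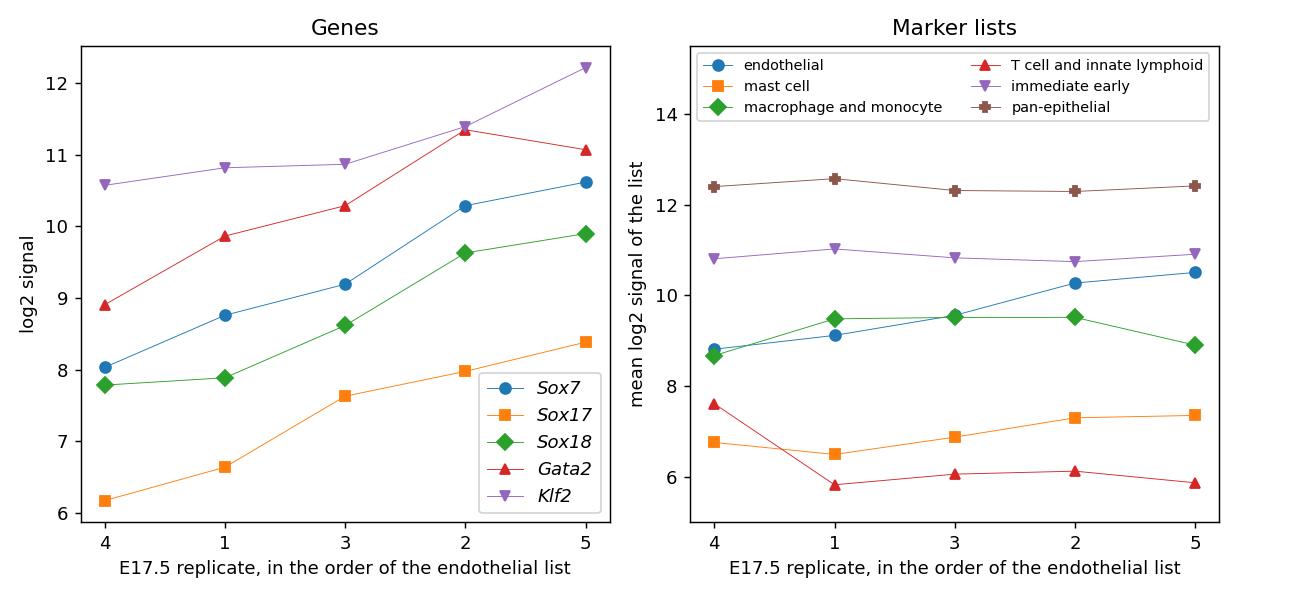
E17.5 arrays compared with each other. The x axis lists the 5 E17.5 replicates in the order of the mean endothelial signal, the left panel gives log2 signals of 5 genes, the right panel gives the mean log2 signal of 6 marker lists, and thin lines only join points of one gene or list. Sox7, Sox17, Sox18 and Klf2 are lowest on replicate 4 and highest on replicate 5, as is the endothelial list, whereas the T cell and innate lymphoid list is highest on replicate 4 at 7.61.

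Of 9 measured genes known as direct or likely targets of SOX group F factors, 6 were called higher and 2 lower at E17.5, with a median log2 difference of 1.28. Hey1, among the 6 higher genes (0.95), was no longer called after quantile normalisation (0.36; limma, adjusted p = 0.36). Its call was also lost without E17.5 replicate 2 or 5 (adjusted p = 0.054 and 0.056). Cldn5, a tight junction gene of endothelium, was 31.8-fold higher, and Robo4, an endothelial guidance receptor, was 26.5-fold higher (limma, adjusted p = 1e-06 and 2.7e-07). By contrast, Prox1, the master factor of lymphatic endothelium and a target of Sox18, was 10.8-fold lower at E17.5, and Notch4, an endothelial Notch receptor, was 7.26-fold lower (limma, adjusted p = 8.2e-09 and 1.6e-09). Cldn5, Robo4, Prox1 and Cdh5 also belong to the endothelial list.

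The 3 genes of SOX group D, which lack a transactivation domain and act beside other factors, did not move together. Sox6 (1426018_a_at), known from cartilage, neurons and erythroid cells, read 8.31, 8.59, 8.58, 8.76 and 8.70 at E11.5 and 6.37, 5.60, 5.83, 6.64 and 6.40 at E17.5. Every E17.5 array was below every E11.5 array, and the mean fell by 2.42 on the log2 scale (SE 0.19), a 5.35-fold difference (limma, adjusted p = 1.6e-07). Its close relative Sox5, a partner of Sox6 in cartilage, went the other way, from 6.29 ± 0.19 (SD) to 6.79 ± 0.16 (n = 5 per stage; limma, adjusted p = 0.0018). Sox13, known from T lymphocytes and as a partner of TCF factors, was 1.80-fold higher, at 8.87 ± 0.26 and 9.72 ± 0.17 (n = 5 per stage; limma, adjusted p = 9.5e-05), but its difference was 0.30 after quantile normalisation and no longer called (adjusted p = 0.073). The Sox5 and Sox13 arrays of the 2 stages did not overlap. Of 10 cartilage genes known as targets of Sox5, Sox6 and Sox9, 0 were higher and 7 were lower at E17.5 (median log2 difference -1.09). The collagen gene Col2a1 was 95.1-fold lower and Col9a3 was 15.1-fold lower (limma, adjusted p = 9.6e-09 and 3.2e-10), while Col9a1 and Col11a2 were lower with log2 differences of -2.04 and -1.67.

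SOX group C genes, which are broadly active in progenitor and differentiating cells of the embryo, were lower or not called. Sox11, whose loss leaves mice with small lungs, lay between 12.07 and 12.37 on the E11.5 arrays and between 10.77 and 11.79 on the E17.5 arrays, with no overlap (1.92-fold lower; limma, adjusted p = 0.00018). Sox12 was 1.96-fold lower, at 8.72 ± 0.15 and 7.75 ± 0.37 (SD, n = 5 per stage; limma, adjusted p = 0.00018), and its arrays did not overlap either. Sox4, needed for heart valves and lymphocyte development, was not called at 8.60 ± 0.15 and 8.37 ± 0.24 (n = 5 per stage; limma, adjusted p = 0.13), and its stage ranges overlapped. The Sox4 call depended on the scaling, since it passed as lower after quantile normalisation with a difference of -0.66 (limma, adjusted p = 0.00039) and after median centring with -0.36 (adjusted p = 0.036).

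Among SOX group B genes, known from neural progenitors and sensory organs, both called genes were lower. Sox21, a group B2 repressor that is also found in airway epithelium beside Sox2, read 7.46, 7.30, 7.40, 7.30 and 7.22 at E11.5 and 5.30, 5.17, 5.30, 5.44 and 5.63 at E17.5. The groups were widely separated, with a 3.92-fold fall and one of the smallest spreads of any changed Sox gene (SE 0.10; limma, adjusted p = 2.9e-09). Sox3, an X-linked gene of neural and pituitary progenitors, was 1.77-fold lower (limma, adjusted p = 6.6e-06), from 4.12 ± 0.15 to 3.30 ± 0.11 (SD, n = 5 per stage). Sox1 and Sox14, known from the nervous system, were not called, with differences of 0.17 (95% confidence interval -0.09 to 0.43) and 0.06 (-0.28 to 0.39).

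Sox8, a group E gene of testis, neural crest and glia, was 2.85-fold lower at E17.5 (limma, adjusted p = 0.00016). It read 4.48, 5.54, 5.73, 5.18 and 6.07 at E11.5 and 4.10, 4.05, 3.62, 3.76 and 3.93 at E17.5. Its E11.5 arrays were the most spread of the called Sox genes at that stage (SD 0.61), but the lowest of them still exceeded the highest E17.5 array. Sox10, the group E factor of neural crest and Schwann cells, was not called, with a difference of -0.18 (95% confidence interval -0.71 to 0.34). Of 9 SOX10 targets and neural markers, 3 were higher and 5 were lower (median -0.35). Erbb3, a neuregulin receptor of Schwann cells that epithelia use too, rose by 4.39 on the log2 scale, and the neuronal RNA-binding gene Elavl4, the receptor gene Ret and the myelin gene Mbp were lower, with differences of -2.94, -2.18 and -2.09. Sox15 and Sox30, the group G and H genes, were not called, with differences of 0.02 (-0.37 to 0.41) and 0.01 (-0.18 to 0.21). Of the relatives left out by the rule, Sox2 was 21.5-fold lower at E17.5 and Sox9 differed by -0.02 (95% confidence interval -0.36 to 0.32), though after quantile normalisation Sox9 was called lower (-0.59; limma, adjusted p = 0.0041).

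**Figure D3:**
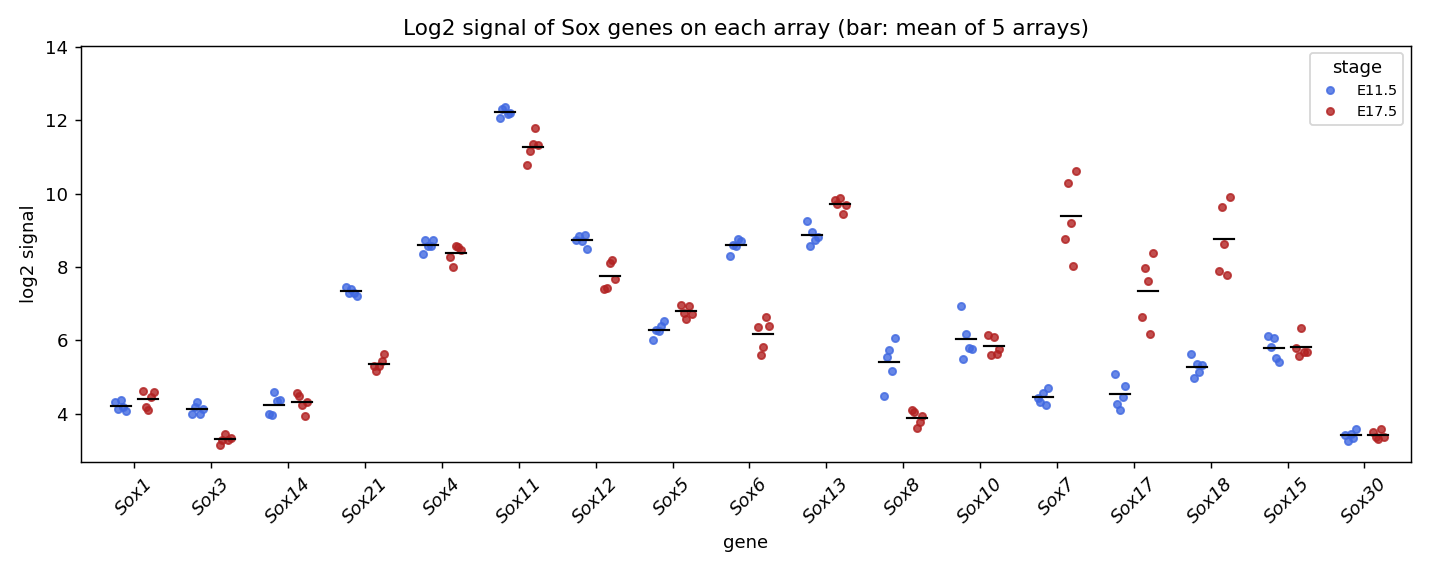
Log2 signal (y axis) of the 17 Sox genes (x axis, by group) on each array. Points are single arrays, 5 per stage and coloured by stage with E11.5 on the left, and short bars are stage means. Sox7, Sox17 and Sox18 sit well above their E11.5 arrays at E17.5 with wide spread, whereas Sox6 and Sox21 sit well below theirs.

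Outside the SOX genes, the HMG-box factors of the TCF/LEF family and beta-catenin, their coactivator in canonical Wnt signalling, were measured by 4 genes, of which 2 were higher and 2 were lower (median -0.58). Lef1 was 24.8-fold lower at E17.5 and Tcf7l2 was 3.37-fold lower (limma, adjusted p = 2.9e-11 and 3.7e-06). Ctnnb1, which encodes beta-catenin, and the repressor gene Tcf7l1 were higher by 1.58 and 0.59 on the log2 scale, but Tcf7l1 differed by -0.011 and was not called after quantile normalisation (limma, adjusted p = 0.92).

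In the Klf family, 4 genes were at least 10-fold higher at E17.5: Klf2, Klf4, Klf6 and Klf15. Their promoter windows are shown because these genes had the largest rises of the family. Each sequence is the 250 bases before the RefSeq gene start (assembly GRCm38.p6), written 5′ to 3′ on the strand of the gene. Capitals mark the CACCC box (CACCC), the GC box (GGGCGG), the CCAAT box (CCAAT) and the MEF2 motif, each searched on both strands.
Klf2, chr8:72318812-72319061, plus strand: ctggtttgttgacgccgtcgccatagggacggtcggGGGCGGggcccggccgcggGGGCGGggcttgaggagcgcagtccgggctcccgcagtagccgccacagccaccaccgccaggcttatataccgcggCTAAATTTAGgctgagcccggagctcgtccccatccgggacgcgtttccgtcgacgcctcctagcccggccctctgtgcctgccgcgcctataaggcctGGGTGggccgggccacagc
Klf4, chr4:55532476-55532725, minus strand: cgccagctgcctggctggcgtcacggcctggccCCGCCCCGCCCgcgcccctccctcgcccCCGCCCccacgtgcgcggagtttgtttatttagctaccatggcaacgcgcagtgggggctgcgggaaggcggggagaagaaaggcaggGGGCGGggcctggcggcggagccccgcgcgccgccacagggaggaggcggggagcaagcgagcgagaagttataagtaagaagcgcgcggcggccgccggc
Klf6, chr13:5861239-5861488, plus strand: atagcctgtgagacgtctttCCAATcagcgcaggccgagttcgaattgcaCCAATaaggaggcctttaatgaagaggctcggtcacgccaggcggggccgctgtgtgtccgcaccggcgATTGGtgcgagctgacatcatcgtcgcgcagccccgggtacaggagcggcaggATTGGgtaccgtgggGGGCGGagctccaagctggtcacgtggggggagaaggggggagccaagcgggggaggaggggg
Klf15, chr6:90462326-90462575, plus strand: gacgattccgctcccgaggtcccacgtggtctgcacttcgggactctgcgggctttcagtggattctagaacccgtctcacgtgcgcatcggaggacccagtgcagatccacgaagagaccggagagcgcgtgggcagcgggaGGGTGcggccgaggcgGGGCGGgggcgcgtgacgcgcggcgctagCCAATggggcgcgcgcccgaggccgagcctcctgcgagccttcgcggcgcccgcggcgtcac

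Every one of the 4 windows held at least 1 GC box, a sequence that SP and KLF factors bind, with 2 in Klf2, 4 in Klf4 and 1 each in Klf6 and Klf15. The first 2 GC boxes of Klf4 share a base, and no match overlapped a match of another motif. CACCC boxes stood in Klf2 and Klf15, 1 each. The CCAAT box, which nuclear factor Y binds, occurred 4 times in Klf6 and 1 time in Klf15. Klf2 alone of the 4 held a MEF2 motif, CTAAATTTAG, starting 118 bases before the gene start. In the table of 32851 windows of this length, 52.0% held a CACCC box, 32.7% a GC box, 33.8% a CCAAT box and 0.508% a MEF2 motif. Windows were listed for 27 of the 37 genes, with 33 windows in all, of which 17 held a CACCC box, 21 a GC box, 15 a CCAAT box and 1 a MEF2 motif. A match describes the letters only and does not show that a factor bound there.

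Klf2 (1448890_at), the lung Krüppel-like factor, is best known from endothelium under flow and from resting T cells. It read 6.33, 5.84, 6.00, 6.07 and 6.05 at E11.5 and 10.82, 11.40, 10.87, 10.57 and 12.22 at E17.5. The stages were far apart, and the rise of 5.12 ± 0.26 (SE), or 34.7-fold, was the largest of the 37 genes (limma, adjusted p = 3.4e-09). Its order over the E17.5 arrays was that of the endothelial list. Klf4 (1417394_at), a barrier gene of epithelia and one of the reprogramming factors, read 8.31, 8.34, 8.25, 8.38 and 8.24 at E11.5 and 12.18, 11.52, 11.42, 11.38 and 12.17 at E17.5. It rose 10.7-fold (log2 3.43 ± 0.17; limma, adjusted p = 2.2e-09), from E11.5 arrays that lay within 0.13 of each other.

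Klf6 (1418280_at), a widely expressed gene that is quickly induced by injury and serum, read 8.52, 8.83, 8.48, 8.92 and 8.89 at E11.5 and 12.81, 12.64, 12.57, 12.43 and 12.52 at E17.5. The 14.6-fold rise had the smallest SE of the 4 genes (log2 3.87 ± 0.12; limma, adjusted p = 3e-11). Klf15 (1448181_at), a regulator of amino acid and glucose metabolism and a known target of the glucocorticoid receptor, read 6.87, 7.07, 7.06, 6.42 and 6.34 at E11.5 and 11.43, 11.56, 11.29, 11.07 and 10.84 at E17.5. It rose 22.4-fold without overlap (log2 4.49 ± 0.18; limma, adjusted p = 3.9e-10). The SDs of Klf4, Klf6 and Klf15 over the E17.5 arrays were 0.41, 0.14 and 0.29, and their lowest E17.5 array was replicate 4, replicate 4 and replicate 5.

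Immediate early genes, which respond within minutes to growth factors and to cell dissociation, also differed between the stages. Of 24 such genes, 21 were called higher and 3 lower at E17.5, with a median log2 difference of 3.48, and the list mean was 7.55 to 7.66 on the E11.5 arrays and 10.75 to 11.02 on the E17.5 arrays. Fosb, Egr2, Fos and Atf3 rose the most, by 8.37, 7.36, 7.24 and 6.40 on the log2 scale. Klf2, Klf4, Klf6 and Klf10 are often counted among early response genes, and the first 3 rose with this list. Klf10 was not called and read 12.28 ± 0.03 and 12.35 ± 0.13 (SD, n = 5 per stage; difference 0.07, 95% confidence interval -0.12 to 0.25). After quantile normalisation the Klf10 difference was -0.39 and was called lower (limma, adjusted p = 0.0013). Whether the handling of the E17.5 cells took part in the Klf rises was not tested.

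Klf3 and Klf12, repressors that recruit CtBP, were called in opposite directions. Klf12 (1422227_at) read 7.45, 7.68, 7.64, 7.58 and 7.72 at E11.5 and 4.22, 4.05, 4.32, 4.26 and 4.08 at E17.5. Both groups were tight and far apart, and the fall of 3.43 on the log2 scale (SE 0.09), 10.8-fold, had the smallest adjusted p of all 37 genes (limma, 8.8e-12). Klf3 was 3.12-fold higher, at 8.50 ± 0.15 and 10.14 ± 0.25 (SD, n = 5 per stage; limma, adjusted p = 1.5e-07), and its arrays did not overlap.

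Among the other activators related to Klf2 and Klf4, Klf7 was higher and Klf1 and Klf5 were lower. Klf7, known from neurons, was 1.85-fold higher (limma, adjusted p = 0.0011), from 9.79 ± 0.36 to 10.68 ± 0.30 (SD, n = 5 per stage), but its difference was 0.29 and not called after quantile normalisation (adjusted p = 0.21). Klf1, the erythroid factor that switches on beta-globin, was 1.70-fold lower and did not overlap (limma, adjusted p = 0.0033). Klf5 (1430255_at), which is needed for lung maturation around birth, read 6.25, 6.36, 6.37, 5.91 and 6.05 at E11.5 and 6.18, 5.91, 5.66, 5.08 and 5.27 at E17.5. Its mean signal was under the median of all genes at both stages. The 2 stages overlapped, and the 1.48-fold fall passed the test narrowly (limma, adjusted p = 0.023). That call was lost without E11.5 replicate 2, E11.5 replicate 3 or E17.5 replicate 5 (differences -0.53, -0.52 and -0.48; adjusted p = 0.052, 0.054 and 0.058).

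Klf10, Klf11, Klf13, Klf14 and Klf16, which can recruit the SIN3 corepressor, were mixed. Klf11, a TGF-beta inducible gene like Klf10, was 2.63-fold higher without overlap (limma, adjusted p = 1.9e-05), at 8.93 ± 0.28 and 10.32 ± 0.35 (SD, n = 5 per stage). Klf13, known from heart and T cells, was 1.44-fold higher (limma, adjusted p = 0.00019), from E11.5 arrays within 0.13 of each other, yet its difference was 0.06 and not called after quantile normalisation (adjusted p = 0.58). Klf14, an intronless gene linked to fat metabolism, was 1.61-fold higher with 1 E17.5 array inside the E11.5 range (limma, adjusted p = 0.015), and Klf16 was 1.45-fold lower without overlap (limma, adjusted p = 0.00051). Klf17, known from germ cells and early embryos, was 1.92-fold lower at dim signals of 4.47 ± 0.12 and 3.53 ± 0.13 (SD, n = 5 per stage; limma, adjusted p = 2e-06). Of the relative left out by the rule, Klf9 rose by 0.97 on the log2 scale.

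**Figure D4:**
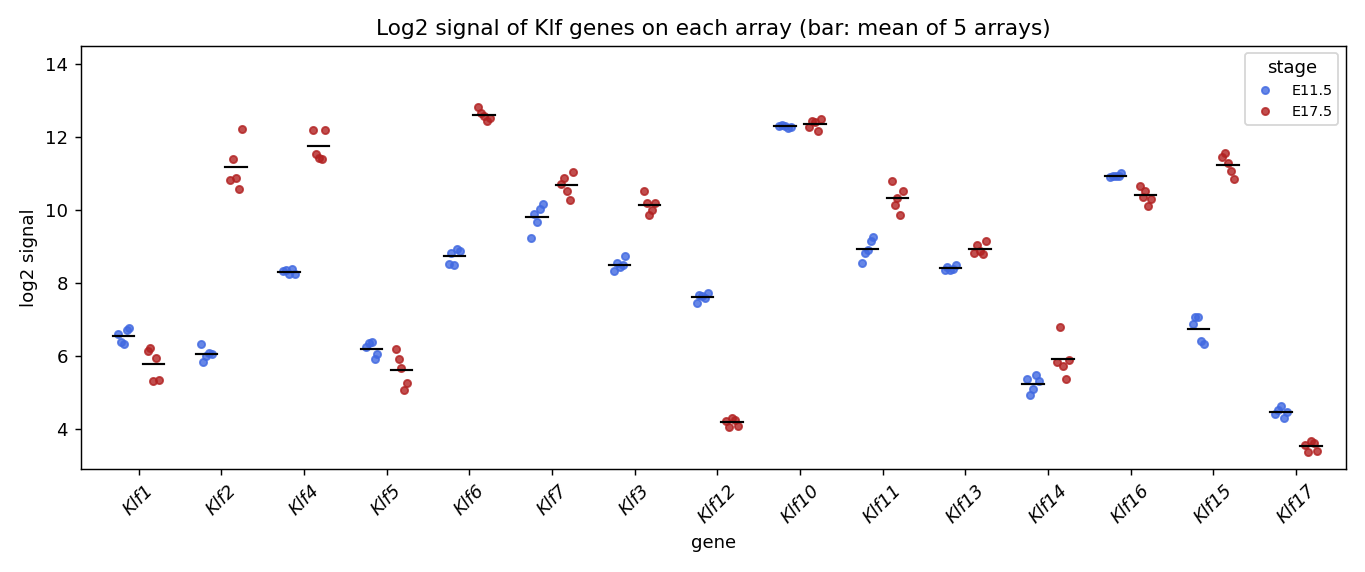
Log2 signal (y axis) of the 15 Klf genes (x axis) on each array. Points are single arrays, 5 per stage and coloured by stage, and short bars are stage means. Klf2, Klf4, Klf6 and Klf15 rise by 3.43 to 5.12 with no overlap, Klf12 falls by 3.43 and Klf10 lies near 12.3 at both stages.

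The SP factors, zinc finger proteins that bind the same GC-rich sites as the KLF proteins, were measured by 7 genes, of which 2 were higher and 3 were lower (median -0.07). One of the higher genes, Sp6, lay at the threshold (difference 0.24; limma, adjusted p = 0.049), and its call was lost with median centring, array weights, the replicate block, trended robust eBayes and without suffixed probe sets (adjusted p = 0.053 to 0.40), and on omission of 8 of the 10 arrays in turn (all but E11.5 replicate 3 and E17.5 replicate 3). After quantile normalisation Sp6 was called and Sp1 was not (0.04; adjusted p = 0.83), and Sp3 was called lower, which gave 1 higher and 4 lower. Sp4 was 2.49-fold lower and Sp5, a target of Wnt signalling, was 2.44-fold lower (limma, adjusted p = 0.0002 and 3e-05), Sp7, the bone factor osterix, fell by 0.90 and the widely expressed Sp1 rose by 0.64 on the log2 scale. Of 10 cofactors of KLF and SP proteins, 5 were higher and 4 were lower (median 0.13). After quantile normalisation Ep300 turned from higher (0.25) to lower (-0.33; limma, adjusted p = 0.0024). Sin3a, which had not been called, became lower with that scaling (-0.60; adjusted p = 6.8e-05). The acetyltransferase gene Kat2b was 25.2-fold higher, the ubiquitin ligase gene Wwp1, whose product acts on Klf2 and Klf5, was 4.39-fold higher and the corepressor gene Sin3b was 3.29-fold higher (limma, adjusted p = 4.2e-11, 1.6e-09 and 6.3e-08). The deacetylase gene Hdac2 was 15.2-fold lower (limma, adjusted p = 6.4e-10). The genes of the CtBP proteins that Klf3 and Klf12 recruit, Ctbp1 and Ctbp2, were lower by less, with differences of -0.29 and -0.42.

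Of 4 measured genes known as targets of Klf2 and Klf4 in vessels and other cells, 3 were called higher and 0 lower (median 1.47). S1pr1, a sphingosine phosphate receptor, was 13.4-fold higher and Nos3, the endothelial nitric oxide synthase, was 3.84-fold higher (limma, adjusted p = 2e-06 and 1.7e-05), and the cell cycle inhibitor gene Cdkn1a rose by 1.00 on the log2 scale. Thbd, which encodes thrombomodulin, did not pass, with a difference of -0.45 (limma, adjusted p = 0.14). After quantile normalisation Thbd was called lower (-0.89; adjusted p = 0.0092) and Cdkn1a was no longer called (0.45; adjusted p = 0.16), so that 2 were higher and 1 lower, and without E17.5 replicate 2 Thbd was called lower as well (-0.63; adjusted p = 0.031). Of 9 targets of Klf1 and Gata1 in red cells, 3 were higher and 2 were lower (median -0.04), and after quantile normalisation 3 were higher and 4 lower. Alas2, the heme synthesis enzyme gene of erythroid cells, and the membrane skeleton genes Sptb and Ank1 rose by 1.48, 0.83 and 0.65 on the log2 scale, and the erythroid membrane gene Ermap fell by 0.81.

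In the GATA family, Gata2 and Gata3 were higher at E17.5, Gata5 was lower, and Gata1 and Gata4 were not called. Gata2 (1428816_a_at), a factor of blood stem cells, mast cells and endothelium, read 6.92, 6.75, 7.17, 7.17 and 7.22 at E11.5 and 9.86, 11.35, 10.29, 8.90 and 11.07 at E17.5. It rose 9.52-fold without overlap (log2 3.25 ± 0.38 SE; limma, adjusted p = 7.9e-06), with an SD of 0.98 over the E17.5 arrays against 0.20 over the E11.5 arrays. Replicate 4 was lowest here as well, replicates 1 and 3 came next and replicates 2 and 5 were highest.

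Gata3, known from T cells, innate lymphoid cells and several epithelia, was 2.97-fold higher (log2 1.57 ± 0.16 SE; limma, adjusted p = 3e-06). It read 3.97, 3.89, 3.97, 3.98 and 4.12 at E11.5 and 5.17, 5.94, 5.09, 5.71 and 5.86 at E17.5. The stages did not overlap, although the E17.5 signals of this probe set were still below every array median.

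Gata5 (1450125_at), a cardiac and endodermal relative of Gata6, fell the most of the family. It read 9.79, 9.70, 9.80, 9.77 and 9.67 at E11.5 and 5.68, 6.75, 6.77, 6.26 and 6.08 at E17.5. The E11.5 arrays lay within 0.13 of each other, and the fall of 3.43 on the log2 scale (SE 0.19) was 10.8-fold (limma, adjusted p = 5.8e-09). Gata4, known from heart and gut, and Gata1, the erythroid and mast cell factor, were not called, with differences of 0.28 (95% confidence interval -0.12 to 0.68) and 0.03 (-0.28 to 0.34). Gata6, left out by the rule, differed by -0.09 (95% confidence interval -0.33 to 0.15).

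**Figure D5:**
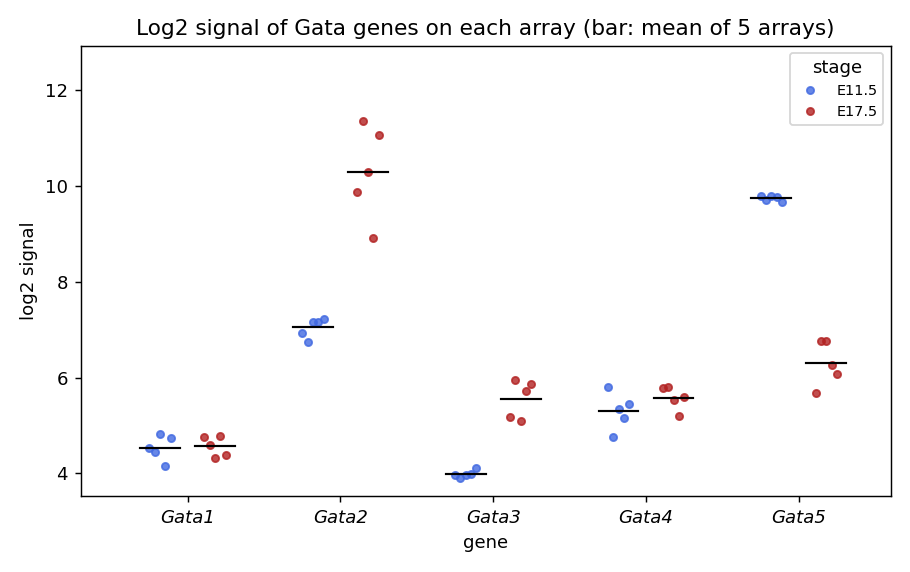
Log2 signal (y axis) of the 5 Gata genes (x axis) on each array. Points are single arrays, 5 per stage and coloured by stage, and short bars are stage means. Gata2 rises with wide spread at E17.5 (SD 0.98), Gata5 falls by 3.43 from E11.5 arrays within 0.13 of each other, and Gata1 and Gata4 overlap between the stages.

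Markers of cells in which Gata2 and Gata3 are well known differed too. The mean of the 10 mast cell markers was 4.81 to 5.09 on the E11.5 arrays and 6.49, 7.30, 6.88, 6.76 and 7.35 on E17.5 replicates 1 to 5. The mast cell protease genes Cma1 and Cpa3 were 41.8-fold and 15.6-fold higher (limma, adjusted p = 8.3e-09 and 1.4e-06) and the tryptase genes Tpsb2 and Tpsab1 rose by 4.67 and 3.19 on the log2 scale. By contrast, Kit, the stem cell factor receptor, was 1.89-fold lower (limma, adjusted p = 0.041). That call was lost with array weights (limma, adjusted p = 0.11). It was also lost on omission of 8 of the 10 arrays in turn (all but E17.5 replicates 2 and 5, adjusted p = 0.055 to 0.094). Ms4a2, a subunit of the IgE receptor, fell by 0.48 at dim mean signals of 3.41 at E11.5 and 2.93 at E17.5. The lowest value on any array was 2.47. Of 9 T cell and innate lymphoid markers 6 were higher and 0 were lower, with a list mean of 4.80 to 4.99 on the E11.5 arrays and 5.83, 6.13, 6.06, 7.61 and 5.87 on E17.5 replicates 1 to 5. The cytokine receptor gene Il7r was 6.52-fold higher, the surface antigen gene Thy1 5.04-fold and the T cell receptor chain gene Cd3g 4.67-fold (limma, adjusted p = 0.00016, 0.00047 and 0.00013), and the costimulatory gene Icos rose by 1.26 on the log2 scale. Replicate 4 had the highest mean of this list, though not the highest Icos signal. It was not the highest array for Gata3 and was the lowest for Gata2. These orders were seen by eye, and the part of such cells in the Gata differences was not tested.

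Of 9 partners of GATA factors, 4 were higher and 3 were lower (median 0.28). The LIM adaptor gene Lmo2 was 12.0-fold higher, and Runx1, Tal1 and Lyl1, blood and endothelial factors that join GATA complexes, were 7.64-fold, 5.55-fold and 4.22-fold higher (limma, adjusted p = 1e-05, 1.2e-08, 9.8e-06 and 8.1e-07). However, the genes of the FOG cofactors, which bind GATA zinc fingers directly, were lower: Zfpm1 was 2.41-fold lower and Zfpm2, the partner of Gata4 in the heart, was 2.05-fold lower (limma, adjusted p = 4.2e-06 and 0.0016). Med1, a Mediator subunit gene, fell by 0.85.

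Of the 37 genes, 17 had mean signals under the median of all genes at both stages, among them Sox1, Sox3, Sox14, Sox30, Klf17 and Gata1, and at such signals an array cannot tell a silent gene from a weak one. The 11 genes with at least 4-fold differences kept their direction and their call in each of the alternatives in which they were measured, including the omission of each array in turn. These genes were picked for large differences on the same arrays. With 1 probe set per member in the deposited table, other probe set choices and leaving out dim genes or suffixed probe sets could not change the difference of a measured member. Members were therefore not checked against a second probe set. Lpcat1 was 26.6-fold lower at E17.5 on the probe set used (limma, adjusted p = 5.5e-13). By contrast, the paper detected LPCAT1 protein robustly in tip cells from E16.5. Whether the probe sets of members mislead in this way was not tested.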

How the data were processed

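RNA was amplified and labelled with NuGEN kits, and the authors processed the arrays in R with Bioconductor. In the deposited table, 21204 probe sets have log2 signals. The methods name neither the background correction and normalisation nor how these probe sets were picked, and that the values are log2 was inferred from their range. The number of arrays, 5 per stage, limits the precision.

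The platform annotation gave the gene of each probe set: 17981 name 1 gene, and the 514 naming several and the 2709 with no gene listed were left out. All 37 members matched a RefSeq gene table (GRCm38.p6) by Entrez ID. Every member rests on 1 probe set; of other genes with more, the brightest on average was kept. Stages were compared with limma 3.58.1 in R 4.3.3 (lmFit and eBayes, no covariates) as E17.5 minus E11.5, with Benjamini-Hochberg adjustment over 17813 genes. The threshold was an adjusted p of 0.05, and a fold is 2 raised to the log2 difference. The procedure was tested on simulated data. Every member is named. Values on every array are given for members that differ at least 4-fold without overlap. They are also given for the largest change of each sign in each family and for Sox8, Sox21, Klf5 and Gata3. Up to 4 genes with the largest change are named in each list described. Cdh5, Ctbp1, Ctbp2, Kit, Ms4a2, Zfpm1, Zfpm2, Med1 and Lpcat1 were added after their values were seen, as were genes named for a changed call. The members and the gene lists, which hold textbook genes, were chosen with earlier results of these data known. Promoter windows came from RefSeq and motifs were counted in Python 3.11.15. Alternatives were quantile normalisation, median centring, other probe set choices, leaving out dim genes or suffixed probe sets, a replicate block, array weights, trended robust eBayes, testing for more than a 2-fold change, and omitting each array.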

Additional observations from a re-analysis of the deposited data

Results flagged for a closer look

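Sox15 stood apart on E17.5 replicate 3, where its log2 signal was 6.33 and the nearest other E17.5 array read 5.78. The gap to the nearest array was large for the range of its group by Dixon's test. Chance flags about 1 in 20 groups, which is 3.7 of the 74 groups of 5 arrays checked, and 1 was found.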

How the results depend on the processing

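The counts of members called were 16 higher and 12 lower, with 5 and 6 for Sox and 9 and 5 for Klf. They were 13 and 14 after quantile normalisation, with 4 and 7 for Sox and 7 and 6 for Klf, and 16 and 13 after median centring. The whole array moved the same way, from 36.9% of all genes higher and 31.5% lower to 31.9% and 39.0% after quantile normalisation and 33.2% and 36.9% after median centring. Among the 27 members without suffixed probe sets 10 were higher, with 2 Sox genes higher (all genes 35.0% higher). Among the 16 members that were not dim 10 were higher and 4 lower, with 1 Sox gene higher and 2 lower and 1 Klf gene lower (all genes 49.7% higher and 34.2% lower). Tested against a 2-fold change, 10 were higher and 4 lower, with 3 Sox genes higher and 2 lower, and 5 Klf genes higher and 1 lower (3437 and 2045 of all 17813 genes). These alternatives test fewer genes or ask for a larger change. Leaving out each array in turn gave 16 to 17 higher and 11 to 12 lower. The median of all genes shifted from 0.03 to -0.10 with median centring and to -0.04 with quantile normalisation.

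Among the members, signs turned only for genes that had not been called. With median centring the log2 differences were -0.10 for Gata1, -0.065 for Klf10, -0.075 for Sox14, -0.11 for Sox15 and -0.12 for Sox30, and with quantile normalisation it was -0.39 for Klf10. Leaving out single arrays gave -0.063 to 0.10 for Gata1, -0.31 to 0.045 for Sox10, -0.014 to 0.15 for Sox14, -0.11 to 0.10 for Sox15 and -0.026 to 0.055 for Sox30. Gata4 was called higher with array weights (0.42; limma, adjusted p = 0.04997) and without E11.5 replicate 1 (0.41; adjusted p = 0.049), and Sox4 was called lower with array weights (-0.28; adjusted p = 0.042). In the gene lists, Sp6, Sp1, Sp3, Tcf7l1, Thbd, Cdkn1a, Kit, Ep300, Sin3a and Hey1 changed their call as given beside their values. Egfl7 of the endothelial list was called lower with quantile normalisation, median centring or without E17.5 replicate 2 or 5 (-0.95 to -0.52). It was called higher from the mean of its probe sets (0.64) or the dimmest (1.69). Other listed genes changed their call in some alternatives too, among them Ldb1, Bcl11b, Comp, Foxd3, Tfrc and Hba-a2. The causes were not tested. No detection calls were used here, so how far the dim members stood above background is unknown.

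Replicate numbers are not stated to pair the stages, and deviations of arrays with the same number correlated at -0.29 to 0.07. With the replicate number as a block the counts were 16 higher and 12 lower (Sox 5 and 6, Klf 9 and 5), and all 28 member calls were kept. In the lists described, the block ended the calls of Sp6 (limma, adjusted p = 0.11) and of Spint2 of the pan-epithelial list (adjusted p = 0.056). Cd3d of the T cell list passed (limma, adjusted p = 0.037).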
